A study of Mus musculus with 12 samples.

Results

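The glutathione S-transferases of the liver were followed at the transcript level in 12 mouse livers. The set holds 10 of the 41743 genes in the deposited tables, taken by name from both tables: 5 of the alpha class (*Gsta1*, *Gm3776*, *Gsta2*, *Gsta4* and *Gsta3*), 3 of the mu class (*Gstm1*, *Gstm2* and *Gstm3*), *Gstp1* of the pi class and *Gstt1* of the theta class. All 10 were found, and all 10 passed the filter of at least 1 TPM in at least 3 livers in each comparison. The members were chosen by results of these same livers, so their differences between groups are given as a description, with no p-value.

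Whole livers came from female mice aged 3 to 4 months, in 4 groups of 3. YAP1 KO mice, on C57BL/6, carried a *Foxa3*-Cre transgene that deleted both floxed copies of *Yap1* in the foregut endoderm, from which hepatocytes and bile ducts arise, and had been bred with a ROSA-stop-EYFP reporter. YKTH mice (YAP1 KO TAZ Heterozygote), on a mixed C57BL/6-FVB background, came from a separate stock with floxed *Yap1* and *Wwtr1*, the gene of TAZ. They lost both copies of *Yap1* and 1 copy of *Wwtr1* through the same *Foxa3*-Cre. The controls were WT littermates on the matching background, called WT (C57BL/6) and WT (mixed), and each mouse was sequenced once, so an n of 3 counts 3 animals. Values of single livers are given in the order LM75, LM192 and LM193 for WT (C57BL/6), LM74, LM189 and LM191 for YAP1 KO, LM226, LM227 and LM230 for WT (mixed) and LM225, LM250 and LM251 for YKTH.

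Glutathione S-transferases join the tripeptide glutathione to electrophiles such as epoxides, quinones and the aldehydes of oxidised lipids. The conjugates are exported from the hepatocyte and trimmed to mercapturic acids. The soluble classes are named by sequence, their genes lie in clusters, and in rodent liver many of them are known to be raised by electrophiles through the transcription factor NRF2 and by drugs through the nuclear receptor CAR. YAP and TAZ are coactivators that have no DNA-binding domain of their own and act largely through TEAD factors.

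The values are transcripts per 1000000 (TPM), which scale reads by gene length and by the library total, so that levels of different genes can be compared. *Yap1* was at 28.2 to 30.5 TPM in WT (C57BL/6) livers and 1.67 to 3.72 TPM in YAP1 KO livers, and at 31.0 to 33.2 TPM in WT (mixed) and 8.63 to 11.5 TPM in YKTH livers. *Wwtr1* was at 6.26 to 6.83, 13.3 to 16.7, 7.73 to 8.38 and 11.5 to 14.1 TPM in the same order, so it was not below WT in the livers with 1 copy. The 7 hepatocyte markers measured summed to 90713 to 118806 TPM over the 12 livers. The tables keep no read counts. The paper states a nominal number of reads per sample, but the depth reached in each liver is unknown. Log2 fold changes are on log2(scaled TPM + 1), where the scaling is a trimmed mean of log ratios, and this pseudocount understates the change of a gene with low values. The median log2 fold change over all genes tested was -0.02 in YAP1 KO and -0.01 in YKTH livers on this scale, and 0.28 and 0.24 on TPM as deposited. Changes are therefore relative to the bulk of the genes.

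Of the alpha genes, 3 are near copies, and this bears on every value given for them. The longest protein-coding transcripts of *Gsta1* and *Gm3776* (a gene model in the same cluster) were 99.5% identical, and each was 97.2% identical to that of *Gsta2*. Their second exons are shown because they hold the 1 coding base, in capitals, that separated *Gm3776* from *Gsta1* in the 5 coding exons compared (exons 2 to 6). The first 2 lines are chr9:78232240-78232326 and chr9:78258712-78258798 on the plus strand of GRCm38.p6, and the third is chr9:78341830-78341916 on the minus strand.
Gsta1: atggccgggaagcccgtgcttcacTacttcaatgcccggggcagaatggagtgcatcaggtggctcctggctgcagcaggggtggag
Gm3776: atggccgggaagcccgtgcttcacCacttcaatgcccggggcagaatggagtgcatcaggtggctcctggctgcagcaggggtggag
Gsta2: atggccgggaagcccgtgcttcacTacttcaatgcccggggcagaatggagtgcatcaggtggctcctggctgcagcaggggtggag

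Exon 6 held the most differences, 5 in 132 bases, and all of them set *Gsta2* apart from the other two. The lines are chr9:78241527-78241658 and chr9:78268010-78268141 on the plus strand and chr9:78332087-78332218 on the minus strand, with the bases that are not the same in all 3 genes in capitals.
Gsta1: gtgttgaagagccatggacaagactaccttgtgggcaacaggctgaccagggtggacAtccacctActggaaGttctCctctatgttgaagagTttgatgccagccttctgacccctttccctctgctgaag
Gm3776: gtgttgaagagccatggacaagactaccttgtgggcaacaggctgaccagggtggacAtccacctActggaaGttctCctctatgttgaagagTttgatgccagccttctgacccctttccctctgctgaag
Gsta2: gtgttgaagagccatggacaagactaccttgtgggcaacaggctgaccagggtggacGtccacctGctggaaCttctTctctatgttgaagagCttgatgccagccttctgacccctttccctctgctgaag

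Of the 150-base windows along each transcript, the length of 1 read, 73.7% in *Gsta1*, 77.7% in *Gm3776* and 26.8% in *Gsta2* were found letter for letter in a transcript of another gene. The share was 41.8% in *Gstp1* (with *Gstp2* and a pseudogene) and 3.4% in *Gstm3*, and 0 in the other 5 genes. How CLC Genomics Workbench divided such reads is not given in the sources used here. The split of reads between *Gsta1*, *Gm3776*, *Gsta2* and their neighbour *Gm10639* is therefore uncertain, as is that between *Gstp1* and *Gstp2*.

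The likeness extends upstream. RefSeq promoter windows of GRCm38.p6, from 250 bases before the start to 50 after it, were held for 9 of the 10 genes. The windows of *Gsta1* and *Gm3776* differed at 3 of 287 aligned bases (99.0% identity), and those of *Gsta1* and *Gsta2* at 21 of 210, with 8 more unpaired. A stretch before the RefSeq starts is shown for the 3 genes, at chr9:78230504-78230650 and chr9:78256977-78257123 on the plus strand and chr9:78347169-78347313 on the minus strand, with the *Gsta2* bases that differ from *Gsta1* or have no partner there in capitals. The *Gsta2* stretch is outside exons but inside the annotated span of that gene, 78331018 to 78355788. *Gsta1* and *Gm3776* were the same in all 147 bases.
Gsta1: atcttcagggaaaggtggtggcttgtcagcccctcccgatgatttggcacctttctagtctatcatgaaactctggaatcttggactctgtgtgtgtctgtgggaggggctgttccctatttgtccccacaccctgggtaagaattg
Gm3776: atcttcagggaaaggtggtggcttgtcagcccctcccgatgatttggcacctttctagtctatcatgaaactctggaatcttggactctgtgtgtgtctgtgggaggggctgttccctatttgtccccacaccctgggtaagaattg
Gsta2: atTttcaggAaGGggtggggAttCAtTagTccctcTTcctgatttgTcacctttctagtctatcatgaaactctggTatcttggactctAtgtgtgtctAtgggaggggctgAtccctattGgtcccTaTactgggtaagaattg

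Of the 10 genes, 8 were higher and 2 were lower in both models. In YAP1 KO livers all 8 that were higher passed the threshold of an adjusted p under 0.05 (limma with Benjamini-Hochberg adjustment over all genes tested), as did 19.7% of all genes in that direction, and the 2 that were lower, *Gsta3* and *Gstt1*, passed it as did 16.9% of all genes. In YKTH livers the same 8 and the same 2 passed, where the shares of all genes were 20.1% and 17.3%. In each model no member overlapped in TPM between the groups, which held for 56.7% of all genes in YAP1 KO and 54.5% in YKTH livers. Nothing is read from these counts, since the genes were named for them. Without scaling, 84.0% of the genes past the threshold in YAP1 KO and 82.2% in YKTH livers were higher, against 53.8% and 53.7% with it, and the members gave 8 higher and 2 lower either way. The median log2 fold change of the 10 genes was 1.7 in YAP1 KO and 1.38 in YKTH livers.

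**Figure D1:**
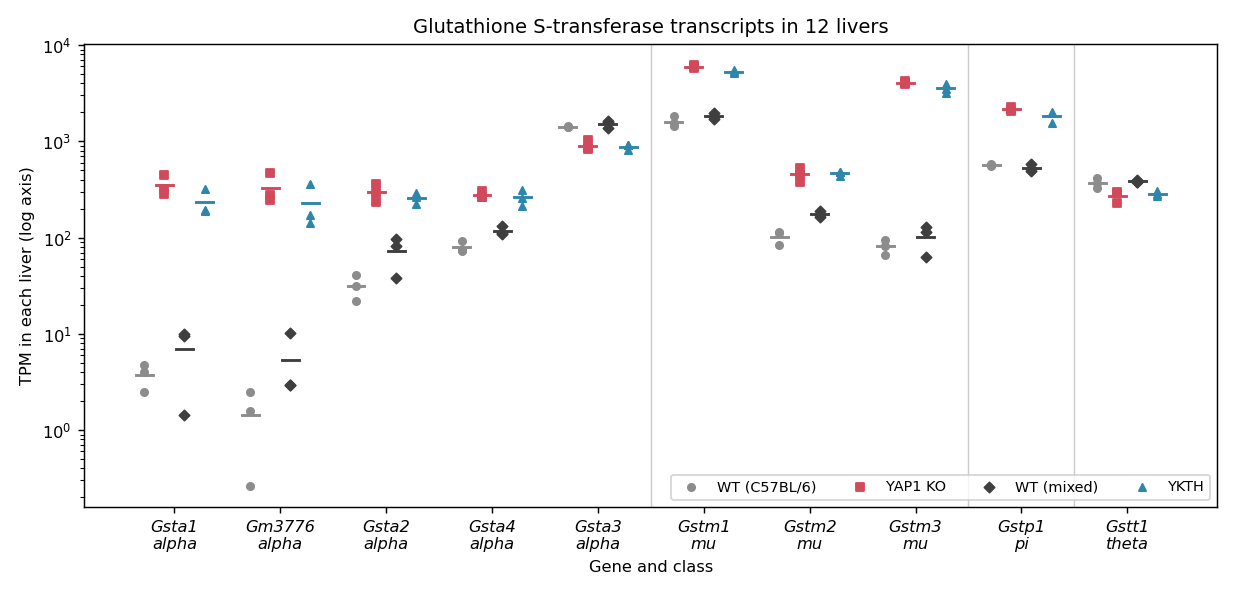
TPM of each transferase (log axis) in each of 12 livers, by gene and class, with a point for each liver and a line at the mean of each group of 3. *Gsta1* and *Gm3776* sit between 0.261 and 10.1 TPM in the WT livers and between 143 and 473 TPM in the knockout livers, while *Gsta3* and *Gstt1* are lower in both models.

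*Gsta1* encodes an alpha enzyme that conjugates electrophiles and also reduces organic hydroperoxides. The WT (C57BL/6) livers held 2.48, 4.00 and 4.79 TPM of it, and the YAP1 KO livers 319, 445 and 281 TPM. On the mixed background the WT livers held 9.58, 10.01 and 1.42 TPM, against 192, 323 and 191 TPM in YKTH livers. Every knockout liver was far above every WT liver, and LM189 among YAP1 KO and LM250 among YKTH mice stood highest. Mean TPM was 92.9 times that of WT in YAP1 KO and 33.6 times in YKTH livers, or 5.91 (standard error 0.23) and 4.87 (standard error 0.54) as a log2 fold change. Without LM230, the WT liver at 1.42 TPM, the second value was 4.16 (standard error 0.25).

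*Gm3776* followed it. The WT (C57BL/6) livers gave 0.261, 1.58 and 2.46 TPM and the YAP1 KO livers 246, 473 and 274 TPM. Those on the mixed background gave 10.1, 2.94 and 2.97 TPM in WT, and the YKTH livers 143, 364 and 173 TPM. The groups were apart in both models, and the highest livers were again LM189 and LM250. Its log2 fold change stood at 6.9 (standard error 0.41) in YAP1 KO and 4.97 (standard error 0.45) in YKTH livers, and the former depended on the pseudocount, since it was 7.78 with 0.1 TPM added in place of 1.

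*Gsta2*, which encodes a close relative of the *Gsta1* enzyme, started from a higher level. Among C57BL/6 mice the WT livers held 31.8, 21.9 and 41.0 TPM and the YAP1 KO livers 235, 362 and 291 TPM. WT (mixed) livers held 82.6, 96.7 and 38.0 TPM and YKTH livers 224, 289.9 and 262 TPM. No WT liver reached a knockout liver. Mean TPM was 9.39 and 3.57 times that of WT, with a log2 fold change of 2.88 (standard error 0.26) and 1.63 (standard error 0.3).

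The makeup of the 3 copies differed as well as their sum. *Gsta2* gave 79.7% to 92.1% of their summed TPM in the 6 WT livers and 28.3% to 41.9% in the 6 knockout livers. *Gsta1* gave 3.35% to 14.6% in WT and 30.5% to 39.9% in knockout livers, and *Gm3776* gave 0.757% to 9.91% and 25.5% to 37.3%. These shares rest on how shared reads were divided. Summed as 1 gene before the fit, the copies had a log2 fold change of 4.37 (standard error 0.26) in YAP1 KO and 2.86 (standard error 0.35) in YKTH livers, which lies between the values of the single genes.

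**Figure D2:**
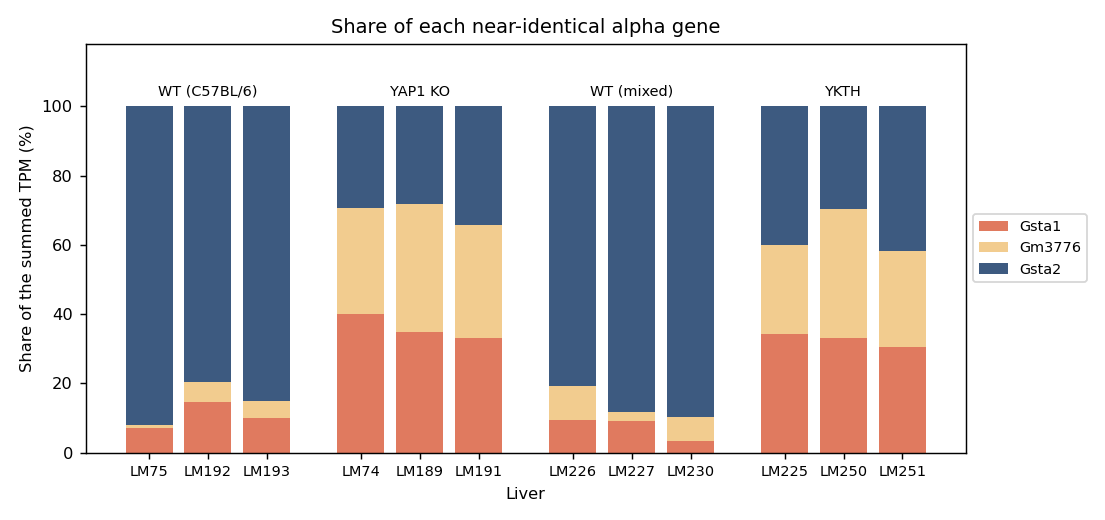
Share of *Gsta1*, *Gm3776* and *Gsta2* in their summed TPM (%), as a stacked bar for each of 12 livers. *Gsta2* takes 79.7% or more of each WT bar and 41.9% or less of each knockout bar.

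*Gsta4* encodes the alpha enzyme with a high preference for 4-hydroxynonenal, an aldehyde of lipid peroxidation. It was at 73.7, 73.2 and 91.8 TPM in WT (C57BL/6) and 265, 308 and 265 TPM in YAP1 KO livers, and at 133, 111 and 109 TPM in WT (mixed) and 214, 312 and 259.6 TPM in YKTH livers. Knockout livers were above their controls throughout, by a ratio of mean TPM of 3.51 in YAP1 KO and 2.22 in YKTH livers. As log2 fold changes these were 1.47 (standard error 0.14) and 0.85 (standard error 0.16).

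*Gsta3* is known in the mouse as the enzyme that conjugates the epoxide of aflatoxin B1, and it lies apart from the other alpha genes, on chromosome 1. It went the other way. Its WT (C57BL/6) livers were at 1423, 1429 and 1396 TPM and its YAP1 KO livers at 859, 1026 and 831 TPM. In the mixed set the WT livers were at 1599, 1627 and 1369 TPM and the YKTH livers at 910.1, 917 and 813 TPM. All 6 knockout livers were below all 6 WT livers. The ratio of mean TPM was 0.639 in YAP1 KO and 0.574 in YKTH livers, with a log2 fold change of -0.99 (standard error 0.13) and -1.09 (standard error 0.12).

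Because *Gsta3* was so abundant, the alpha class changed less in its sum than in its makeup. The 5 genes summed to 1532 ± 3.29 TPM (SD, n = 3) in WT (C57BL/6) and 2161 ± 393 TPM (SD, n = 3) in YAP1 KO livers. In the mixed set they summed to 1735 ± 185 TPM (SD, n = 3) in WT and 1863 ± 297 TPM (SD, n = 3) in YKTH livers, where the groups overlapped, with 2 of the 3 YKTH livers (1683 and 1699 TPM) below 2 of the 3 WT livers (1835 and 1848 TPM).

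*Gstm1*, the main mu enzyme of mouse liver, had the highest mean TPM of the 10 genes in all 4 groups. It was at 1550.7, 1431 and 1826 TPM in WT (C57BL/6) and 6209.96, 5831 and 5888 TPM in YAP1 KO livers. WT (mixed) livers held 1989, 1779 and 1728 TPM, and YKTH livers 5159, 5301 and 5501 TPM. The spread within each group was small beside the gap between them. Means stood at a ratio of 3.73 and 2.9, and the log2 fold change was 1.57 (standard error 0.13) and 1.25 (standard error 0.13).

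*Gstm3* was the mu gene that changed most. WT (C57BL/6) livers held 82.3, 65.6 and 95.5 TPM and YAP1 KO livers 4207, 4001 and 3941 TPM. WT (mixed) livers held 127, 114 and 62.8 TPM and YKTH livers 3217, 3987 and 3494 TPM. It went from among the lower members to the second of the 10, with a ratio of mean TPM of 49.9 in YAP1 KO and 35.1 in YKTH livers and a log2 fold change of 5.31 (standard error 0.15) and 4.89 (standard error 0.24). *Gstm1* was 15.5 to 27.5 times *Gstm3* in the 6 WT livers and 1.33 to 1.6 times in the 6 knockout livers.

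*Gstm2*, a mu enzyme of the same cluster, was at 110.5, 83.0 and 115 TPM in WT (C57BL/6) and 382, 452 and 524 TPM in YAP1 KO livers, and at 189.7, 163 and 172 TPM in WT (mixed) and 481, 477 and 435 TPM in YKTH livers. Knockout livers reached about the same level in both sets, from WT levels that did not overlap with each other. The ratio of mean TPM was 4.41 and 2.66, and the log2 fold change 1.8 (standard error 0.19) and 1.12 (standard error 0.1).

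The mu class therefore held most of the difference in transferase transcripts. Its 3 genes summed to 1786 ± 231 TPM (SD, n = 3) in WT (C57BL/6) and 10479 ± 279 TPM (SD, n = 3) in YAP1 KO livers, a ratio of 5.87. In the mixed set they summed to 2108 ± 178 TPM (SD, n = 3) in WT and 9351 ± 459 TPM (SD, n = 3) in YKTH livers, a ratio of 4.43. Of the summed TPM of the 10 genes the mu class took 41.9% in WT (C57BL/6) and 69.6% in YAP1 KO livers, and 44.2% in WT (mixed) and 70.1% in YKTH livers, while the alpha class went from 36.1% to 14.3% and from 36.4% to 13.9%.

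*Gstp1* encodes the pi enzyme, which besides conjugation is known to bind and restrain the kinase JNK. It was at 551, 569.8 and 581 TPM in WT (C57BL/6) and 2139.8, 2295 and 2049 TPM in YAP1 KO livers, and at 514, 497 and 587 TPM in WT (mixed) and 1559.6, 1979 and 2017 TPM in YKTH livers. The WT livers of both backgrounds lay close together and the knockout livers above all of them. The ratio of mean TPM was 3.81 and 3.47, with a log2 fold change of 1.59 (standard error 0.11) and 1.5 (standard error 0.17).

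*Gstt1* encodes a theta enzyme that acts on small halogenated compounds and epoxides. Its WT (C57BL/6) livers were at 415, 327 and 370.1 TPM and its YAP1 KO livers at 230.1, 295 and 290.0 TPM. The mixed set gave 401, 381 and 379 TPM in WT and 267, 308 and 286 TPM in YKTH livers. The knockout livers were lower in both sets, with the narrowest gap of the 10 genes in YAP1 KO livers (295 against 327 TPM). The ratio of mean TPM was 0.733 and 0.741, and the log2 fold change -0.78 (standard error 0.17) and -0.72 (standard error 0.11).

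**Figure D3:**
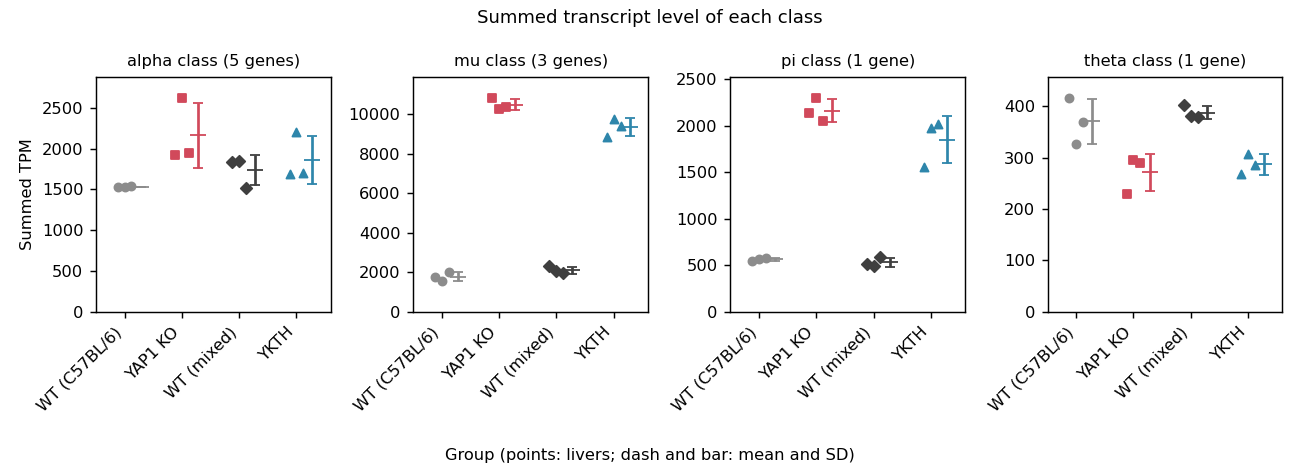
Summed TPM of the members of each class in each liver, by group, with the mean and SD of 3 livers beside the points. The mu class sums to 1579 to 2306 TPM in the WT livers and to 8857 to 10799 TPM in the knockout livers, while the alpha class overlaps between WT (mixed) and YKTH.

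Together the 10 genes gave 4257 ± 259 TPM (SD, n = 3) in WT (C57BL/6) and 15073 ± 427 TPM (SD, n = 3) in YAP1 KO livers, or 0.426% and 1.51% of all transcripts. In the mixed set they gave 4763 ± 304 TPM (SD, n = 3) in WT and 13352 ± 948 TPM (SD, n = 3) in YKTH livers, or 0.476% and 1.34%. Of this difference *Gstm1* made up 40.4% in YAP1 KO and 40.6% in YKTH livers, *Gstm3* 36.7% and 40.3%, and *Gstp1* 14.7% and 15.4%. *Gsta1*, whose fold change was behind only that of *Gm3776* in YAP1 KO livers and behind those of *Gm3776* and *Gstm3* in YKTH livers, made up 3.19% and 2.66%. In whole liver, fewer cells of a type and less RNA per cell cannot be told apart.

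The order of levels changed with them. In WT (C57BL/6) livers it ran *Gstm1*, *Gsta3*, *Gstp1*, *Gstt1*, *Gstm2*, *Gstm3*, *Gsta4*, *Gsta2*, *Gsta1* and *Gm3776* by mean TPM, and the only neighbours whose livers overlapped were *Gstm2* with *Gstm3* and *Gstm3* with *Gsta4*. In WT (mixed) livers *Gsta4* came before *Gstm3*, and the overlapping neighbours were *Gsta4* with *Gstm3*, *Gstm3* with *Gsta2*, and *Gsta1* with *Gm3776*. In YAP1 KO livers the order began *Gstm1*, *Gstm3*, *Gstp1*, *Gsta3* and *Gstm2*. Below them *Gsta1*, *Gm3776*, *Gsta2*, *Gsta4* and *Gstt1* lay between 272 and 349 TPM in the mean, and from *Gstm2* down each neighbour overlapped with the next. The first 5 places were the same in YKTH livers, where *Gstt1*, *Gsta4*, *Gsta2*, *Gsta1* and *Gm3776* followed, each overlapping with the next. *Gstt1* and *Gsta1*, at means of 371 and 3.76 TPM in WT (C57BL/6) livers, were thus at 272 and 349 TPM in YAP1 KO livers.

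Between the WT groups no member passed the threshold, and 4 of the 10 had an unadjusted p under 0.05 (limma). Of all genes 0.216% passed the threshold and 5.82% had an unadjusted p under 0.05. *Gm3776*, *Gsta4* and *Gstm2* did not overlap and were higher in the WT (mixed) livers, where 11.7% of all genes did not overlap in either direction. The log2 difference, WT (mixed) minus WT (C57BL/6), was 1.28 (standard error 0.46) for *Gm3776*, 0.5 (standard error 0.12) for *Gsta4* and 0.71 (standard error 0.15) for *Gstm2*. It was 1.05 (standard error 0.34) for *Gsta2*, whose groups overlapped because LM230 was at 38.0 TPM. LM230 was also the lowest WT (mixed) liver for *Gsta1*, *Gsta3*, *Gsta4*, *Gstm1*, *Gstm3* and *Gstt1*.

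The difference between the models, the change in YAP1 KO minus that in YKTH livers, passed the threshold for no member, and for 0.0576% of all genes. Unadjusted, 4 of the 10 had a p under 0.05 (limma), as did 4.56% of all genes. For the same reasons nothing is read from these counts. The difference was 1.94 (standard error 0.7) for *Gm3776*, 1.25 (standard error 0.45) for *Gsta2*, 1.04 (standard error 0.67) for *Gsta1*, 0.68 (standard error 0.23) for *Gstm2* and 0.62 (standard error 0.22) for *Gsta4* on the log2 scale. For *Gstm3*, *Gstm1*, *Gstp1*, *Gsta3* and *Gstt1* it was 0.41 (standard error 0.31), 0.32 (standard error 0.17), 0.09 (standard error 0.2), 0.1 (standard error 0.17) and -0.07 (standard error 0.21), of which the last 3 changed sign in some alternative fits. The *Wwtr1* copy, the background, the floxed stock and the mice of each set differ together between the models and cannot be told apart. The remaining *Yap1* transcript differed with them, at 1.67 to 3.72 TPM in YAP1 KO and 8.63 to 11.5 TPM in YKTH livers. Without LM230 the difference for *Gsta1* was 1.76 (standard error 0.38).

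**Figure D4:**
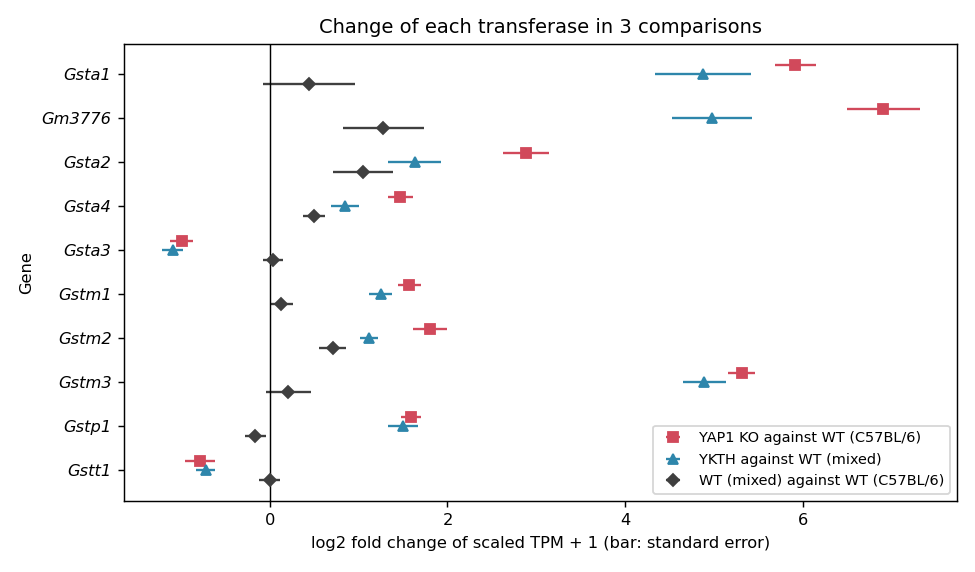
Log2 fold change of each transferase on scaled TPM + 1 (bars, standard error) in YAP1 KO against WT (C57BL/6), YKTH against WT (mixed) and WT (mixed) against WT (C57BL/6). *Gsta1*, *Gm3776* and *Gstm3* lie between 4.87 and 6.9 in both models, and *Gsta3* and *Gstt1* lie below 0 there.

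Position in the genome gave a further view, since 9 of the 10 genes lie in 4 clusters and neighbours outside the set were measured too. In the mu cluster, from 107895821 to 108044894 on chromosome 3 of GRCm38, the genes run *Gstm5*, *Gstm7*, *Gstm6*, *Gstm3*, *Gstm2*, *Gstm1* and *Gstm4*. The log2 fold change of *Gstm3* was 5.31 in YAP1 KO livers, and that of *Gstm6*, the gene next to it, was 0.19 (standard error 0.12, limma adjusted p = 0.251). *Gstm7* gave 0.16 in YAP1 KO and 0.36 in YKTH livers, and neither value passed the threshold. In YAP1 KO livers *Gstm6* did pass with no scaling (limma adjusted p = 0.00541) and with quantile normalization (limma adjusted p = 0.0138). *Gstm7* passed in 2 of 12 alternatives in YAP1 KO and in 4 of 12 in YKTH livers. *Gstm5* at the far end rose by 0.66 and 0.72 (limma adjusted p = 0.00208 and 0.00328). In the alpha cluster on chromosome 9, from 78182774 to 78355788, *Gm10639* lies between *Gm3776* and *Gsta2* and was 96.6% to 98.3% identical to them in transcript. It was listed at 0 in every WT (C57BL/6) liver and was at 0.965 to 2.30 TPM in YAP1 KO livers, where it did not pass the filter. In WT (mixed) livers it was at 0.238 TPM or less and in YKTH livers at 1.68 to 7.44 TPM (a log2 fold change of 2.13 with a standard error of 0.37). There *Gm10639* passed the filter through the YKTH livers alone, so no p-value is given. Its values also rest on how shared reads were divided. The pi cluster, from 4035407 to 4059569 on chromosome 19, and the theta cluster, from 75774115 to 75837424 on chromosome 10, are described with their other genes below.

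**Figure D5:**
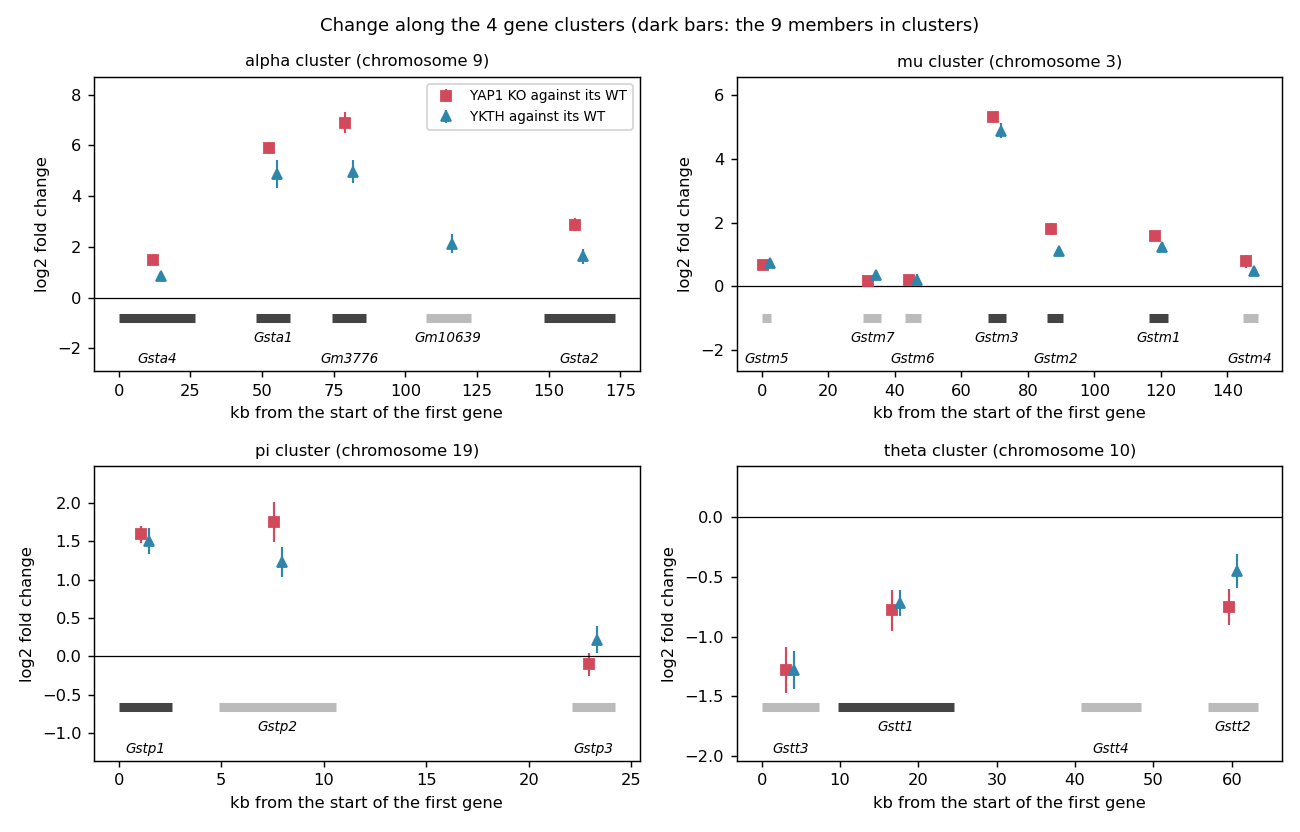
Log2 fold change (bars, standard error) of the tested genes along the alpha, mu, pi and theta clusters against distance in kb from the start of the first gene, with gene spans as bars under the points. *Gstm3* stands at 5.31 and 4.89 between *Gstm6* (0.19 in both models) and *Gstm2* (1.8 and 1.12), and the 3 theta genes with a value are all below 0.

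Upstream sequences are shown for *Gstp1* and *Gstm3*, which with *Gstm1* made up most of the difference, and for *Gstm2* because its window held one of the motifs searched. Each was searched on both strands for 4 motifs chosen after the sequences had been seen: TGACNNNGC and TGAGNNNGC, core forms of the antioxidant response element, GGAATG, the core of the TEAD site, and AGGTCA, the core hexamer bound by several nuclear receptors. The *Gstp1* line is chr19:4037978-4038127 on the minus strand, which ends with TGAGTCAGC in capitals, and its last 8 bases lie in the first exon of the annotated gene. The *Gstm2* line is chr3:107986454-107986603 and the *Gstm3* line chr3:107969284-107969424, both on the minus strand and outside exons, with GGAATG in capitals in *Gstm2*.
Gstp1: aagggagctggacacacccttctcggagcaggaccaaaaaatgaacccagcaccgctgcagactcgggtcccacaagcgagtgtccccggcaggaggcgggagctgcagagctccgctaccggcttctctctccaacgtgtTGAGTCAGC
Gstm2: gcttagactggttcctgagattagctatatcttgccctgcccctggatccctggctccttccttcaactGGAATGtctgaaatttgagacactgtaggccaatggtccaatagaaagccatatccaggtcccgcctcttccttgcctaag
Gstm3: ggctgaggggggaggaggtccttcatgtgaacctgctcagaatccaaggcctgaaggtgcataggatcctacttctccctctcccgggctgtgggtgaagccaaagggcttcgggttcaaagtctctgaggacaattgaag

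In the whole windows TGAGNNNGC was found in *Gstp1* and *Gstt1* and in 17.6% of all 32851 promoter windows, TGACNNNGC in *Gsta3* and in 12.4%, GGAATG in *Gstm2* and in 14.7%, and AGGTCA in *Gstm1* and in 16.3%. *Gsta1*, *Gm3776*, *Gsta2* and *Gstm3* held none of the 4. *Gstp1* and *Gstt1*, which share TGAGNNNGC, went opposite ways. A match describes letters and is not evidence of binding.

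The other genes of glutathione metabolism were taken in 6 lists of 83 measured genes. They went both ways. In YAP1 KO livers 27 of 76 tested rose and 23 fell, and in YKTH livers 22 of 77 rose and 24 fell, with a median log2 fold change of 0.2 and 0.17. On TPM as deposited the split was 38 to 14 and 37 to 13, and after quantile normalization 29 to 17 and 27 to 17. None of them passed the threshold between the WT groups or between the models (limma, with 4 of 71 and 6 of 78 at an unadjusted p under 0.05). Over all genes tested, 19.7% rose and 16.9% fell in YAP1 KO livers, and 20.1% rose and 17.3% fell in YKTH livers. The same shares stand beside the counts of each list and of the cell markers below.

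Of the transferases outside the set, 4 of 15 tested rose and 6 fell in YAP1 KO livers, and 7 of 17 rose and 6 fell in YKTH livers (median 0.12 and 0.28). Of these 7, *Gm10639*, *Hpgds* and *Mgst2* passed the filter through the YKTH livers alone, at 0.782 TPM or less in each WT (mixed) liver. *Gm10639* and *Mgst2* were not tested in YAP1 KO livers, so the 2 counts of genes that rose cannot be compared directly. *Gstp2*, the neighbour of *Gstp1* and 94.2% identical to it in transcript, went from 4.52 ± 1.28 to 21.9 ± 6.55 TPM (SD, n = 3) in YAP1 KO livers and from 2.93 ± 1.21 to 9.51 ± 0.156 TPM (SD, n = 3) in YKTH livers. Its log2 fold change was 1.75 and 1.23 (limma adjusted p = 0.00166 and 0.00201), whereas that of *Gstp3* in the same cluster was -0.1 and 0.22 and missed the threshold. In YKTH livers *Gstp3* passed it in 2 of 12 alternatives. The values of *Gstp2* rest on how reads shared with *Gstp1* were divided. *Gstm4* rose by 0.78 and 0.48 (limma adjusted p = 0.0152 and 0.0453), the former missing the threshold without LM192 (limma adjusted p = 0.0586) or LM193 (limma adjusted p = 0.0585) and the latter in 7 of 12 alternatives. *Mgst3*, a membrane-bound transferase, rose by 0.77 and 0.56.

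The 6 that fell were the same in both models, namely *Gstt3*, *Gstt2*, *Gstz1*, *Gsto1*, *Gstk1* and *Mgst1*, and on TPM as deposited 4 fell in YAP1 KO and 3 in YKTH livers. *Gstt3* fell by 1.28 in both models (limma adjusted p = 0.00162 and 0.000515), from 115 ± 7.63 to 60.1 ± 12.7 TPM (SD, n = 3) in YAP1 KO livers, and *Gstt2* by 0.75 and 0.45, of which the second missed the threshold in 8 of 12 alternatives, among them the fits without LM227, LM230, LM225, LM250 or LM251. The fall of *Gstk1* missed it in 8 of 12 alternatives in YAP1 KO livers, including without LM75, LM193, LM74, LM189 or LM191, and in 3 in YKTH livers, including without LM250. That of *Mgst1* missed it with no scaling and quantile normalization in both models, and in YKTH livers also without LM251 (limma adjusted p = 0.0506). *Gstz1*, the maleylacetoacetate isomerase of tyrosine breakdown, fell from 561 ± 41.1 to 411 ± 14.7 TPM (SD, n = 3) in YAP1 KO and from 608 ± 42.4 to 428 ± 30.2 TPM (SD, n = 3) in YKTH livers (log2 fold change -0.78 and -0.79, limma adjusted p = 0.00122 and 0.000749). *Gsto1*, an omega transferase, fell by 0.98 and 0.86.

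For glutathione synthesis and recycling, 3 of 10 tested genes rose and 2 fell in YAP1 KO livers, and 2 rose and 2 fell in YKTH livers (median 0.37 and 0.17). *Gss*, glutathione synthetase, rose from 61.5 ± 14.4 to 137 ± 3.84 TPM (SD, n = 3) in YAP1 KO livers and from 61.8 ± 11.97 to 128 ± 17.1 TPM (SD, n = 3) in YKTH livers, by 0.84 and 0.76 on the log2 scale (limma adjusted p = 0.0045 and 0.0183). The second value missed the threshold without LM250 (adjusted p = 0.064) and without LM251 (adjusted p = 0.0681). *Gsr*, which reduces oxidised glutathione, rose by 0.74 and 0.55 (limma adjusted p = 0.0013 and 0.00897). *Gclc*, the catalytic subunit of the rate-limiting ligase, gave 0.43 and 0.1 and passed in neither model. It did pass in 3 of 12 alternatives in YAP1 KO livers.

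Among enzymes that use glutathione, 5 of 11 rose and 5 fell in YAP1 KO livers, and 2 of 10 rose and 4 fell in YKTH livers (median -0.33 and -0.24). *Gpx3*, the secreted glutathione peroxidase, had the largest log2 fold change of those tested in both models, from 5.96 ± 2.11 to 95.6 ± 22.1 TPM (SD, n = 3) in YAP1 KO and from 3.99 ± 0.801 to 67.6 ± 19.99 TPM (SD, n = 3) in YKTH livers (log2 fold change 3.51 and 3.5, limma adjusted p = 3.93e-05 and 1.18e-05). *Gpx2*, a related peroxidase tested in YAP1 KO livers only, rose there from 0.374 ± 0.298 to 11.2 ± 2.04 TPM (SD, n = 3), by 2.96 on the log2 scale, a larger ratio of mean TPM than that of *Gpx3*. Since *Gpx2* passed the filter through the knockout livers alone, no p-value is given for it. *Gpx4*, which reduces lipid hydroperoxides in membranes, rose by 1.03 and 0.92. *Hagh*, the second enzyme of the glyoxalase pathway, fell by 1.21 and 1.19 and the glutaredoxin *Glrx* by 0.9 and 0.63.

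For export of conjugates and the mercapturate route, 8 of 16 rose and 6 fell in YAP1 KO livers, and 4 rose and 6 fell in YKTH livers (median 0.41 and 0.23). *Dpep1*, a dipeptidase that cleaves cysteinylglycine conjugates, rose from 0.301 ± 0.216 to 6.46 ± 1.52 TPM (SD, n = 3) in YAP1 KO livers and from 0.359 ± 0.0677 to 2.01 ± 0.645 TPM (SD, n = 3) in YKTH livers. In both models *Dpep1* passed the filter through the knockout livers alone, so no p-value is given for it. *Kyat1*, a cysteine conjugate beta-lyase, fell by 1.71 and 1.27 on the log2 scale, and the aminoacylases *Acy3*, which deacetylates mercapturates, and *Acy1* fell by 1.69 and 1.61 and by 1.28 and 1.46, with limma adjusted p from 2.15e-05 to 0.00107.

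Of 15 regulators, 1 rose and 3 fell in each model (median -0.04 and -0.08). *Nr1i3*, which encodes CAR, fell from 208 ± 81.3 to 50.3 ± 12.4 TPM (SD, n = 3) in YAP1 KO and from 224 ± 77.6 to 74.8 ± 12.2 TPM (SD, n = 3) in YKTH livers (log2 fold change -2.3 and -1.81, limma adjusted p = 0.000792 and 0.00054). *Mafk*, a small Maf partner of NRF2, rose by 0.96 and 0.79 (limma adjusted p = 0.00957 and 0.000915). *Nfe2l2*, the gene of NRF2, gave 0.42 and -0.06 and passed in neither model. In YAP1 KO livers it did pass in 2 of 12 alternatives.

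Of 9 genes known as NRF2 or CAR targets, 6 rose and 1 fell in YAP1 KO livers, and 6 rose and 3 fell in YKTH livers (median 1.38 and 1.01). *Me1* and *Por* fell in YKTH livers only (log2 fold change -0.92 and -1.02, limma adjusted p = 0.00178 and 0.0392). They gave -0.4 and -0.67 in YAP1 KO livers. Those that rose included *Srxn1*, sulfiredoxin, by 1.93 and 1.5, *Ugdh*, which makes the sugar donor of glucuronidation, by 1.9 and 1.46, and *Hmox1*, heme oxygenase, by 1.41 and 1.5 (limma adjusted p from 4.15e-05 to 0.000756). *Cyp2b10*, the classical CAR target of mouse liver, fell from 21.3 ± 15.9 to 4.70 ± 2.51 TPM (SD, n = 3) in YAP1 KO and from 24.3 ± 2.55 to 4.27 ± 1.0 TPM (SD, n = 3) in YKTH livers (log2 fold change -2.14 and -2.53, limma adjusted p = 0.0138 and 2.32e-05).

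The genes most like the leading member of each class were sought among 12159 genes by the root mean square difference of log2(scaled TPM + 1) over 12 livers, each gene centred on its mean. For *Gsta3* they were *Slc25a21* (0.0846), *Hibadh* (0.0851) and *Pipox* (0.0941), of which *Hibadh*, a valine breakdown enzyme, was at 370 ± 18.4, 244 ± 16.5, 395 ± 7.22 and 233 ± 3.97 TPM (SD, n = 3) in WT (C57BL/6), YAP1 KO, WT (mixed) and YKTH livers. For *Gstm1* they were *Mmp14* (0.107), *Arhgap44* (0.123) and *Myl12b* (0.128), for *Gstp1* *Tmem176b* (0.147), *Crip2* (0.153) and *Tpm1* (0.156), and for *Gstt1* *Ndufb9* (0.101), *Maob* (0.102) and *Ptms* (0.103). *Arhgap44* was low, at means of 0.275, 2.64, 0.237 and 2.49 TPM in WT (C57BL/6), YAP1 KO, WT (mixed) and YKTH livers. The pseudocount understates its change, so its likeness to *Gstm1* rests partly on that setting. The 12 points share the 4 groups, and the measure includes the differences between them.

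Markers of macrophages and of stellate cells and fibroblasts moved with the members. Over 8 macrophage markers the summed level was 264 to 329 TPM in WT (C57BL/6), 806 to 1214 TPM in YAP1 KO, 236 to 515 TPM in WT (mixed) and 1060 to 1195 TPM in YKTH livers, and 7 of 8 rose in each model. For 8 stellate cell and fibroblast markers the sums were 133 to 157, 376 to 499.5, 116 to 148 and 324 to 413 TPM, and 5 of 8 rose in each model, while *Lrat*, a stellate cell enzyme of vitamin A storage, fell in YAP1 KO livers (log2 fold change -0.82, limma adjusted p = 0.0114), which missed the threshold with no scaling and with 12 livers in 1 fit. For 8 cholangiocyte markers they were 41.3 to 68.4, 339 to 761, 58.1 to 74.5 and 121 to 237 TPM, with 2 of 5 tested raised in each model, *Spp1* and *Sox9*, and *Epcam* lower in YKTH livers (log2 fold change -1.47). There *Epcam* passed the filter through the WT (mixed) livers alone, so no p-value is given. *Spp1* alone had a mean of 450.4 TPM in YAP1 KO and 154 TPM in YKTH livers and so made up most of these sums, while *Anxa13* was at 0 in all livers and *Krt19* and *Krt7* stayed at means of 0.368 to 3.02 TPM. For 7 endothelial markers they were 78.7 to 86.6, 77.0 to 115, 103 to 108 and 94.5 to 129 TPM, with 1 of 7 raised and 2 lowered in YAP1 KO and 2 raised and 2 lowered in YKTH livers, so they did not move with the members as a group. The summed hepatocyte markers were 104163 to 118145, 92016 to 100207, 93370 to 118806 and 90713 to 106809 TPM. Of these 7 markers 0 were raised and 3 lowered in YAP1 KO livers, and 1 was raised and 2 lowered in YKTH livers. *Alb* alone had group means of 60138 to 78604 TPM and so made up most of these sums. The part of these cells in the transferase values was not tested.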

How the data were processed

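RNA from the frozen livers of 12 female mice was sequenced from both ends, 150 bases a read. With CLC Genomics Workbench the authors mapped these to GRCm38 and counted them by gene, and the tables they deposited, 1 for each background, give a TPM value for every gene and mouse. Both tables also hold the authors' own comparison of each model with its littermates, made with edgeR (group means, fold changes, p-values and adjusted p-values), which was not used. Every TPM column belonged to a labelled liver, and no pair of livers held identical values. Read counts are not used here, so the precision that depth gives is unknown.

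Groups came from the sample labels. TPM was divided by a trimmed mean of log ratios (trimming 30% of the ratios and 5% of the levels from either side), and log2 was taken after adding 1. A gene entered a fit if 3 or more of its livers had 1 TPM or more, and limma 3.58.1 under R 4.3.3 gave the test (eBayes with a trend, two-sided, Benjamini-Hochberg adjustment, threshold 0.05), each model with its own 6 livers and the difference between the models over 12. This replaces the count test of the study, which needs counts. Genes at 1 TPM or more in 1 group alone could enter, among them *Dpep1*, *Gpx2*, *Gm10639*, *Hpgds*, *Mgst2* and *Epcam*. The counts of list genes past the threshold include such genes. The fits were tested on simulated data. Transcripts were compared with blastn 2.17.0 on GENCODE M21, in which all 10 members had the coordinates of the files.

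The members and the lists were chosen with earlier results of these data known. The text names all 10 members, and of each list the genes past the threshold in both models without overlap in TPM, by the larger change, at most 6 of the other transferases and 4 of any other pathway list. The neighbours in the clusters, *Gstk1*, *Mgst1*, *Gclc*, *Nfe2l2*, *Gpx2*, *Epcam* and *Lrat* were added after their values were seen. So were *Hpgds*, *Mgst2*, *Me1* and *Por*, which are not among the named genes followed through the alternatives. The alternatives were a pseudocount of 0.1, quantile normalization, TPM with no scaling, no filter or a filter at 5 TPM, 12 livers in 1 fit, each liver left out, and the alpha copies summed.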

Additional observations from a re-analysis of the deposited data

How the results depend on the processing

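No direction of a member reversed in either model under any alternative, and their calls, which the choice of the members largely fixes, held in each fit that kept the alpha copies apart. Of 540 alternative values of the members' log2 fold changes, 33 moved by more than the spread between livers, mainly with no scaling or quantile normalization. Of 1871 values of 37 other named genes, 37 lost the threshold, from *Gstk1*, *Gstm4*, *Gstt2*, *Mgst1*, *Gss* and *Lrat*, and 17 passed it that had not. These 17 came from *Gclc*, *Gstm6*, *Gstm7*, *Gstp3*, *Nfe2l2* and *Gpx2*. With no scaling 84.0% of the genes past the threshold were higher in YAP1 KO livers, against 53.8% on scaled values, and 82.2% against 53.7% in YKTH livers. Leaving out 1 liver at a time gave 3069 to 3974 genes past the threshold in YAP1 KO (4290 with all livers) and 2759 to 3925 in YKTH livers (4384), with the lowest values without LM251 (2759) and LM250 (2873). For the other glutathione genes it gave 38 to 45 (50) and 28 to 44 (46), with 28 without LM251 and 29 without LM250. Between the WT groups it gave 9 to 28 (24), with 13 without LM192, 12 without LM193, 10 without LM226, 9 without LM227 and 11 without LM230, and no filter gave 15. For the difference between the models it gave 3 to 20 (7), with 20 without LM74, 15 without LM225 and 3 without each of LM193, LM226 and LM251, while a pseudocount of 0.1 gave 3 and no filter 2. The cause was not tested, though a fit without a liver has fewer samples. No paired analysis was possible because the sample titles do not say which mice shared a litter. The fits therefore leave litter out. The missing depth limits low genes most, such as *Gm3776* at 0.261 TPM in LM75.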
